A study of Mus musculus with 16 samples.

Results

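The 35 genes described here are expressed by mature oligodendrocytes: 18 encode myelin and other membrane proteins, 8 lipid and metabolic enzymes, 5 transcription factors and 4 secreted, receptor or carrier proteins. They were chosen by name as known genes of this cell type, but with earlier results of these data known. Counts of them set beside all genes are therefore descriptive. Each matched 1 of the 38924 gene rows of the count files, and all 35 were among the 18111 genes with enough counts to be tested. The counts came from polyA RNA of the periaqueductal gray (PAG), a midbrain region that takes part in the control of pain, in male mice. There were 4 groups of 4 libraries: wildtype naïve, wildtype morphine, RGSz1 KO naïve and RGSz1 KO morphine. RGSz1 is a regulator of G protein signalling encoded by Rgs20. Each library pooled PAG punches of 2 mice, and the labels call the 4 libraries of a group biological replicates. The labels name no allele, strain, age, morphine dose or length of treatment, and no vehicle for the naïve mice. The series was made to examine how tolerance to morphine, and RGSz1, affect RNA levels in this region.

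Oligodendrocytes wrap axons of the central nervous system in myelin, a stack of cell membrane that is compacted by myelin basic protein (Mbp) and is rich in galactolipids and cholesterol. Olig1, Olig2, Sox10, Nkx6-2 and Myrf are transcription factors of this lineage, and Sox10 and Myrf drive myelin genes in differentiating cells. Myelinated fibres run through the midbrain, and RNA of these genes is abundant in tissue taken there. In tissue punches, a change in the share of oligodendrocytes and a change in RNA per oligodendrocyte cannot be told apart.

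Total counts over genes ranged from 19.1 to 55.0 M per library. Rgs20, the gene named by the KO label, was at 12.8 ± 0.82 CPM (counts scaled to the size of each library, with TMM factors; mean ± SD, n = 4) in wildtype naïve, 13.1 ± 1.04 in wildtype morphine, 12.6 ± 0.95 in KO naïve and 12.1 ± 0.67 CPM in KO morphine libraries. Its log2 difference between the genotype labels was -0.02 ± 0.07 (SE) among naïve libraries (edgeR adjusted p = 0.943) and -0.11 ± 0.07 under morphine (adjusted p = 0.669). The gene's RNA was thus not detectably lower under the KO label, and which part of the gene was altered is not given in the sources used here. These groups are therefore called libraries labelled knockout below. Among markers of other cell types, the choroid plexus gene Ttr was at 0.30 to 1.82 CPM and the neuronal gene Snap25 at 2018 to 2461 CPM.

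Per kilobase of annotated exon, Mbp had the highest level of the 35 genes in wildtype naïve libraries, at 410 ± 86.6 CPM per kb (SD, n = 4). Mobp, a second basic protein of compact myelin, followed at 205 ± 47.8 CPM per kb, and Qdpr, which regenerates the cofactor tetrahydrobiopterin, at 164 ± 19.3 CPM per kb. The ranges of Mobp and Qdpr over these libraries overlapped (143 to 252 and 135 to 176 CPM per kb), and the genes were not compared library by library. The lowest were Trf (transferrin, the iron carrier) at 1.93 ± 0.46 CPM per kb and Ninj2 (ninjurin 2, an adhesion protein) at 1.66 ± 0.42 CPM per kb, again with overlapping ranges. Mog, Mag and Opalin, which mark mature oligodendrocytes, had counts in every library: 78.4 to 149 CPM, 229 to 452 CPM and 23.2 to 40.6 CPM. The reads for Trf are uncertain, because 2108 of its 3320 exonic bases are shared with the read-through model Gm20425 on the same strand. Its level per kb was divided by all 3320 bases, so its place among the lowest is uncertain too. Plekhh1 overlaps Pigh by 992 exonic bases on the opposite strand, which the library kit does not distinguish.

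Libraries of the same group differed for many of these genes at once. Wildtype naïve 2 had the lowest level of its group for 33 of the 35 genes, whereas it was lowest for 30.6% of all genes. Its summed level of the 35 genes was 6730 CPM, which is 68.8% of the mean of the other wildtype naïve libraries. That library also had a summed level of 10 meningeal fibroblast markers of 2151 CPM, against 316 to 416 CPM in the rest of its group. Wildtype naïve 4 was highest of its group for 30 of the 35 genes, against 27.6% of all genes, with 388 CPM of meningeal markers. Its summed level of the 35 genes was 10772 CPM, or 128% of the mean of the other wildtype naïve libraries. Among libraries labelled knockout, morphine 3 was highest of its group for 31 of the 35 genes, against 28.9% of all genes. It held 2153 CPM of meningeal markers, while morphine 1 held 965 CPM and morphine 2 and 4 held 385 and 365 CPM. Naïve 2 of the knockout label was highest of its group for 31 genes, against 24.3% of all genes, with 463 CPM of meningeal markers. The part of meningeal tissue in these levels was not tested. The median coefficient of variation of the 35 genes was 18.1% in wildtype naïve, 5.29% in wildtype morphine, 8.91% in knockout naïve and 11.3% in knockout morphine libraries.

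**Figure D1:**
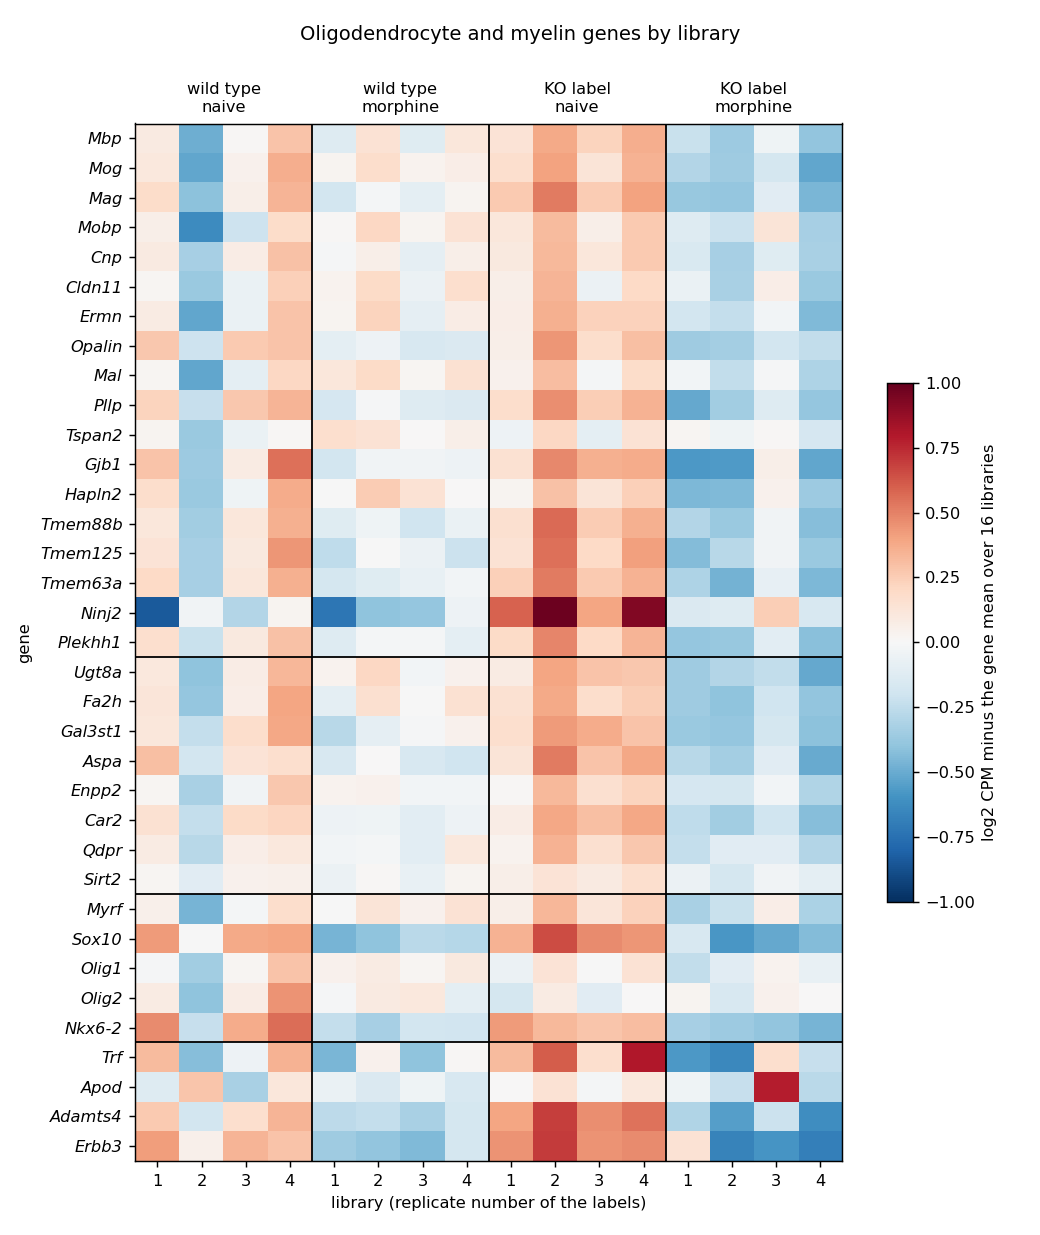
Log2 CPM of each gene (rows, grouped by role from top to bottom: membrane proteins, enzymes, transcription factors, secreted and receptor genes) minus that gene's mean over 16 libraries, with 1 column per library. Wildtype naïve 2 is low for 33 of 35 genes within its group, all 4 libraries of the labelled knockout under naïve conditions lie mostly above the mean, and the knockout morphine libraries mostly below it.

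In wildtype mice, morphine went with lower levels of 4 of the 35 genes and higher levels of none: the transcription factors Sox10 and Nkx6-2, the receptor Erbb3 and the protease Adamts4. By edgeR's quasi-likelihood test 4.41% of all genes were called in this comparison (2.07% lower and 2.34% higher). The median log2 fold change of the 35 genes was -0.11, against -0.01 over all genes. It was -0.03 without wildtype naïve 4 and -0.05 without wildtype morphine 1. Leaving out wildtype naïve 2 went the other way in the summed level of the 35 genes. The naïve mean of that sum was 9018 CPM with the library and 9781 CPM (n = 3) without it, against 9195 CPM in wildtype morphine. None of the 18 membrane protein genes and none of the 8 enzyme genes was called (3 and 1 of them had an unadjusted p under 0.05). Sox10 and Erbb3 were lower in every morphine library than in every naïve library, which held for 5.09% of all genes, and no member was higher in every one, which held for 5.96%. Without wildtype naïve 2, 7 genes were called, with Opalin, Pllp and Car2 added, when 2.71% of all genes were called. In that case 16 of the 35 genes were lower in every wildtype morphine library than in every remaining naïve one. The same held for 6.87% of all genes, and such overlap was read again for the omission of that library only. Without wildtype naïve 3, or without wildtype morphine 2, Sox10 alone was called. The count was 2 without wildtype naïve 1 or 4, wildtype morphine 1, 3 or 4, or knockout naïve 1, 3 or 4, which enter through the shared estimate of spread.

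Sox10 (ENSMUSG00000033006, chr15:79154908-79165240 in GRCm38, minus strand) encodes a factor needed to make myelin. It stood at 70.4, 52.3, 68.4 and 69.1 CPM in the wildtype naïve libraries 1 to 4 and at 38.0, 39.8, 43.7 and 43.2 CPM in the wildtype morphine libraries. The groups did not overlap even with the low naïve library 2. Sox10 fell by 0.65 ± 0.10 (SE) on the log2 scale, or by 36.5% (edgeR adjusted p = 0.0023), and it was called in all 27 alternative settings. In the libraries labelled knockout it was at 66.8, 82.4, 73.0 and 71.2 CPM when naïve and at 47.1, 35.2, 36.8 and 38.9 CPM with morphine. Again no morphine library reached a naïve one, and the fall was 0.89 ± 0.11 on the log2 scale, or 45.9% (adjusted p = 0.0003), called in all 27 settings.

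Nkx6-2 (ENSMUSG00000041309, chr7:139579376-139582797, minus strand) is a homeobox factor of mature oligodendrocytes. Its wildtype naïve levels were 27.2, 16.7, 25.4 and 28.8 CPM and its wildtype morphine levels 16.6, 15.5, 17.2 and 17.1 CPM, so that naïve 2 lay among the morphine libraries. It fell by 0.55 ± 0.12 on the log2 scale (adjusted p = 0.0155), but not past the threshold without wildtype naïve 3 or wildtype morphine 2, with only the groups compared, or by limma-voom. In the libraries labelled knockout, naïve levels of 26.2, 24.6, 23.7 and 24.2 CPM stood against 15.5, 15.2, 14.8 and 14.2 CPM with morphine. These groups were tight and well apart, and the fall was 0.73 ± 0.12 on the log2 scale (adjusted p = 0.0019).

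Erbb3 (ENSMUSG00000018166, chr10:128567523-128589652, minus strand) encodes a neuregulin receptor. It was at 29.5, 22.8, 28.0 and 26.9 CPM in wildtype naïve and at 17.2, 16.8, 16.3 and 19.5 CPM in wildtype morphine libraries, without overlap. The fall of 0.62 ± 0.15 on the log2 scale (adjusted p = 0.0399) was called in 14 of 27 settings and not when any 1 of the wildtype morphine libraries, wildtype naïve 1, 3 or 4, or knockout naïve 1, 3 or 4 was left out. Under the knockout label, the naïve libraries had 30.2, 35.8, 30.2 and 30.6 CPM and the morphine libraries 24.4, 13.9, 14.6 and 13.7 CPM. Morphine 1 lay apart from the rest of its group, still below every naïve library, and the fall was 0.92 ± 0.16 on the log2 scale (adjusted p = 0.0029).

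Adamts4 (ENSMUSG00000006403, chr1:171250421-171260637, plus strand) encodes a secreted protease that cleaves matrix proteoglycans. It was at 53.1, 38.9, 49.7 and 56.0 CPM in wildtype naïve and at 36.8, 37.6, 35.3 and 39.2 CPM in wildtype morphine libraries, with naïve 2 inside the morphine range. Its wildtype fall of 0.41 ± 0.11 on the log2 scale was at the threshold (adjusted p = 0.049) and was called in 8 of 27 settings. The call was lost without wildtype naïve 1, 3 or 4, any wildtype morphine library, any knockout naïve library, or knockout morphine 1 or 2. Under the knockout label, it went from 58.1, 71.3, 61.1 and 64.5 CPM to 35.9, 30.2, 38.1 and 28.7 CPM. The fall of 0.94 ± 0.11 on the log2 scale, or 48.0% (adjusted p = 0.0003), was the largest of the 35 genes and was called in all 27 settings.

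**Figure D2:**
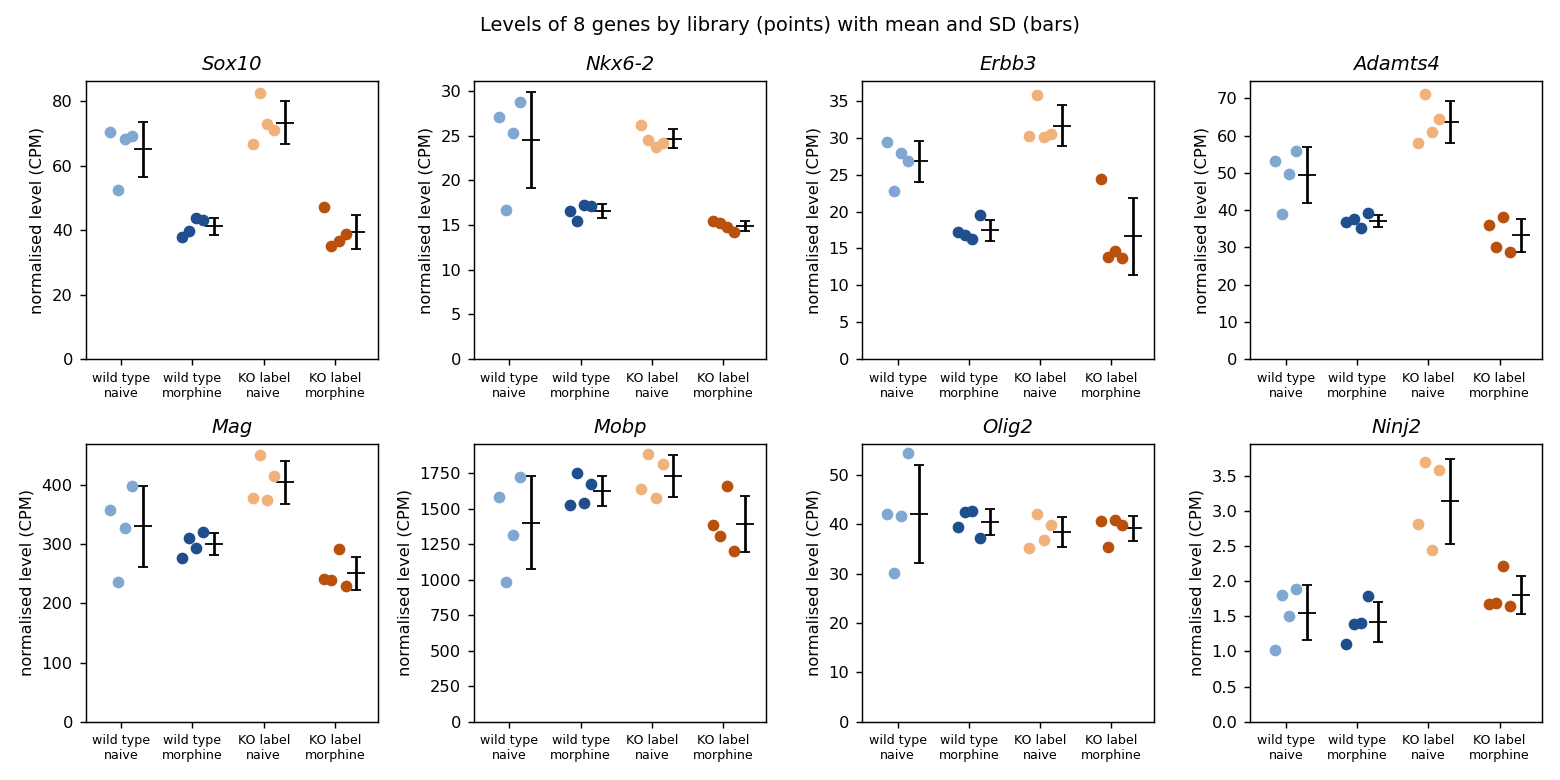
CPM of 8 genes in each library (points, replicate 1 to 4 from left to right) for the 4 groups, with mean and SD beside them. Sox10 and Erbb3 do not overlap between naïve and morphine libraries in either genotype label, Olig2 overlaps in both, and Ninj2 is higher in the naïve libraries labelled knockout than in the naïve wildtype libraries.

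In the libraries labelled knockout, 25 of the 35 genes fell with morphine and none rose, where 11.5% of all genes were called (5.83% lower and 5.67% higher). The 4 genes called in wildtype were among them, 21 were called under the knockout label and not in wildtype, and 10 were called in neither. For 26 genes every morphine library was below every naïve library, which held for 8.78% of all genes, and for no member was the order the reverse, as it was for 8.27% of all genes. The median log2 fold change of the 35 genes was -0.60, with a median SE of 0.13, against 0.00 over all genes. The summed level of the genes was 10657 ± 859 CPM (SD, n = 4) in naïve and 7855 ± 844 CPM in morphine libraries, while the wildtype groups had 9018 ± 1699 and 9195 ± 601 CPM. Without wildtype naïve 2 the wildtype naïve mean was 9781 ± 917 CPM (SD, n = 3), above that of wildtype morphine, so the sign of the wildtype difference in this sum rested on that library. Between 19 and 29 genes were called when 1 library was left out, with 19 without naïve 2, morphine 2 or morphine 4 of the knockout label. The shares of all genes called in those fits are not given here.

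Among the 18 membrane protein genes, 12 fell. Mag, an adhesion protein of the inner myelin layer that faces the axon, stood at 378, 452, 375 and 415 CPM in naïve and at 242, 240, 291 and 229 CPM in morphine libraries. The groups were far apart, and Mag fell by 0.69 ± 0.13 on the log2 scale (edgeR adjusted p = 0.0055). Mbp went from 3824, 4524, 4053 and 4480 CPM to 2982, 2707, 3369 and 2646 CPM, a fall of 0.53 ± 0.14 (adjusted p = 0.0269). Mog, a glycoprotein of the outer myelin surface, fell by 0.60 ± 0.15 (adjusted p = 0.0184), and Cnp, an enzyme of the cytoplasmic myelin channels, by 0.43 ± 0.10 (adjusted p = 0.0156). The calls of Mbp, Mog and Cnp were lost when naïve 2, morphine 2 or morphine 4 of the knockout label was left out, Mbp and Mog also without naïve 4, and Mbp without morphine 1. These calls were also lost with a serotonin score of each library as a covariate, described with the other cell types. Opalin and the tetraspan protein Pllp fell by 0.53 ± 0.10 and 0.65 ± 0.11, and Plekhh1 by 0.63 ± 0.10, each in all 27 settings. The connexin Gjb1 fell by 0.73 ± 0.18, with a call lost without naïve 2 or morphine 1, 2 or 4. Tmem88b, Tmem125 and Tmem63a fell by 0.62, 0.62 and 0.67 on the log2 scale. With the serotonin score, Gjb1, Tmem88b, Tmem125 and Tmem63a were not called.

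The other 6 membrane protein genes were not called by edgeR. DESeq2 called Ermn and Hapln2, and so did edgeR with only the groups compared or without wildtype naïve 2 or 4. Hapln2 was also called without knockout morphine 3 or with a filter of 1 CPM in 8 libraries, and Mal without wildtype naïve 2. Mobp was at 1640, 1885, 1576 and 1816 CPM in naïve and at 1387, 1310, 1661 and 1202 CPM in morphine libraries labelled knockout. Morphine 3 lay inside the naïve range, and the log2 difference was -0.32 ± 0.15 (interval of 2 SE from -0.61 to -0.02, adjusted p = 0.204). The tight junction gene Cldn11 had -0.31 ± 0.13, the proteolipid gene Mal -0.28 ± 0.13, the cytoskeletal gene Ermn -0.44 ± 0.14, the matrix link protein gene Hapln2 -0.47 ± 0.15 and the tetraspanin gene Tspan2 -0.10 ± 0.08 on the log2 scale, with adjusted p from 0.0585 to 0.506. In wildtype libraries all 6 of these genes had positive log2 differences, from 0.05 ± 0.14 for Hapln2 to 0.21 ± 0.15 for Mobp, none of them called. Without wildtype naïve 2, Ermn was at -0.05 and Hapln2 at -0.08, and the other 4 lay between 0.01 and 0.10.

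All 8 enzyme genes fell in the libraries labelled knockout. Ugt8a and Gal3st1, the enzymes that make galactosylceramide and turn it into sulfatide, fell by 0.61 ± 0.12 and 0.65 ± 0.11 on the log2 scale (adjusted p = 0.0077 and 0.0014). Ugt8a stood at 119, 147, 137 and 135 CPM in naïve and at 87.7, 91.3, 94.6 and 78.5 CPM in morphine libraries. No morphine library came near a naïve one. Fa2h, which hydroxylates the fatty acids of these lipids, fell by 0.58 ± 0.13, and Aspa, which releases acetate from N-acetylaspartate, by 0.65 ± 0.11. Car2, a carbonic anhydrase, fell by 0.60 ± 0.09 and Qdpr by 0.40 ± 0.08. The smallest fall was that of the deacetylase Sirt2, 0.21 ± 0.04, and Enpp2, which makes lysophosphatidic acid, fell by 0.35 ± 0.10 (adjusted p = 0.0347). Enpp2 was called in 18 of 27 settings and not when knockout naïve 2, 3 or 4, or knockout morphine 1, 2 or 4, was left out. With the serotonin score, the calls of Ugt8a, Fa2h, Sirt2 and Enpp2 were lost. In wildtype libraries the log2 differences of the 8 enzymes lay between -0.24 for Aspa and 0.02 for Ugt8a, none of them called.

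Of the 5 transcription factors edgeR called Sox10 and Nkx6-2 in each genotype label and none of the others. Olig2 was at 42.1, 30.1, 41.8 and 54.4 CPM in wildtype naïve and at 39.5, 42.5, 42.7 and 37.2 CPM in wildtype morphine libraries. Under the knockout label it was at 35.2, 42.1, 36.8 and 40.0 CPM in naïve and at 40.7, 35.5, 40.9 and 39.9 CPM in morphine libraries. The groups overlapped in both labels, and the log2 differences were -0.05 ± 0.13 and 0.03 ± 0.13, with intervals of 2 SE from -0.32 to 0.21 and from -0.24 to 0.30. Olig1 had 0.06 ± 0.10 and -0.15 ± 0.10, and Myrf, the factor that turns on late myelin genes, 0.13 ± 0.12 in wildtype and -0.38 ± 0.12 under the knockout label (adjusted p = 0.0605). DESeq2 called Myrf under the knockout label, and so did edgeR with only the groups compared or without wildtype naïve 2 or 4 or knockout morphine 3, or with the filter of 1 CPM in 8 libraries. Of the other genes, Trf fell under the knockout label by 0.79 ± 0.21 (adjusted p = 0.0248), a call lost without naïve 2 or 4 or morphine 1, 2 or 4 of that label. Apod, a lipid carrier, had log2 differences of -0.11 ± 0.20 and 0.06 ± 0.20, and its highest value was 268 CPM in knockout morphine 3, the library with the most meningeal markers.

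**Figure D3:**
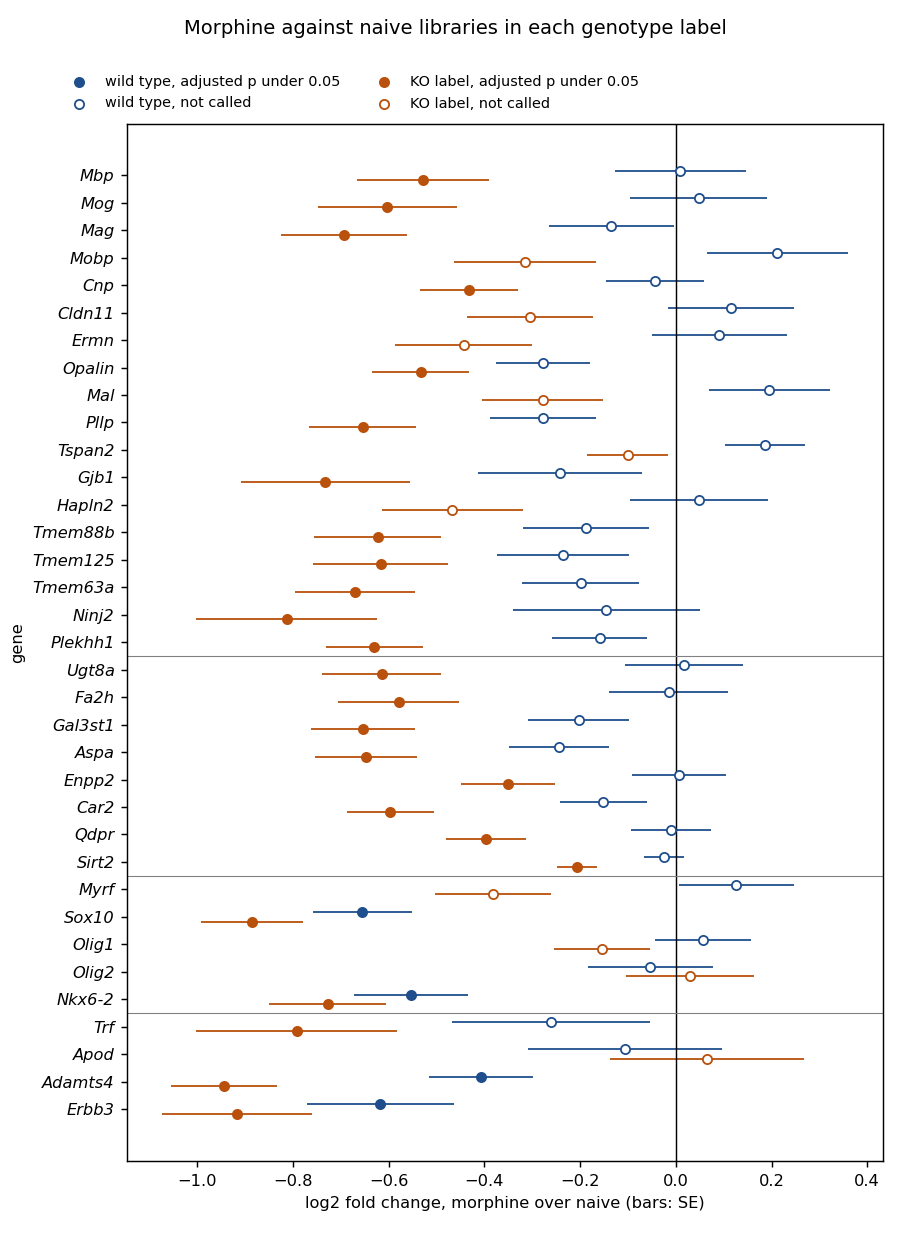
Log2 fold change of morphine over naïve libraries with SE for each of the 35 genes (rows, by role), in wildtype (blue) and in the libraries labelled knockout (orange), filled where the adjusted p was under 0.05. Filled points number 4 in wildtype and 25 under the knockout label, and the orange points lie left of the blue ones for all genes but Olig2 and Apod.

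The members that fell did so to different degrees, so ratios between members within a library also shifted. Such a ratio does not depend on the scaling between libraries. Of the 595 pairs of members, 239 had ratios that did not overlap between naïve and morphine libraries in wildtype, 279 under the knockout label, and 140 in both with the same direction. These are 40.2%, 46.9% and 23.5% of the pairs, against 13.3%, 22.8% and 5.49% of all pairs of the 10403 genes with a mean of at least 10 CPM. Pairs that share a member are not independent. The pairs named next were chosen after their values were seen, and no test is given. Mag over Mobp was 0.237 ± 0.011 (SD, n = 4) in wildtype naïve and 0.185 ± 0.0068 in wildtype morphine libraries, and 0.234 ± 0.0054 and 0.181 ± 0.0076 in naïve and morphine libraries labelled knockout. The lowest naïve ratio of all 8 libraries was 0.226 and the highest morphine ratio 0.191, and the low library wildtype naïve 2 had 0.241. Sox10 over Olig2 was 1.58 ± 0.21 in wildtype naïve, 1.02 ± 0.10 in wildtype morphine, 1.91 ± 0.09 in knockout naïve and 1.01 ± 0.11 in knockout morphine libraries. Its naïve libraries ranged from 1.27 to 1.99 and its morphine libraries from 0.898 to 1.16. Nkx6-2 over Olig2 was 0.583 ± 0.052, 0.412 ± 0.039, 0.644 ± 0.071 and 0.382 ± 0.033 in the same order of groups.

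**Figure D4:**
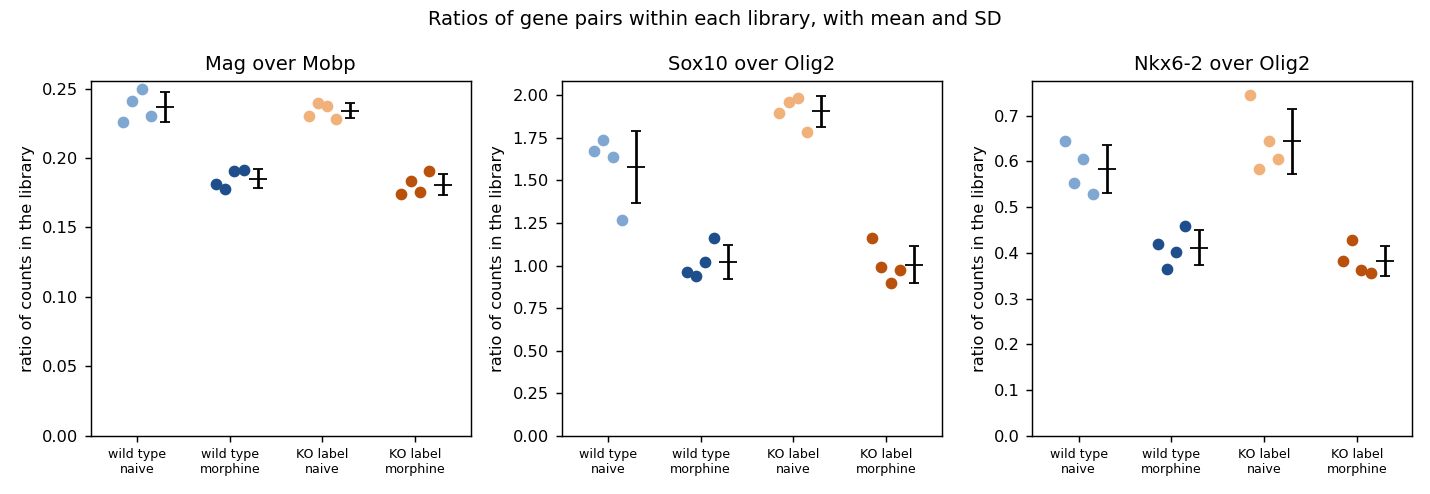
Ratio of counts of 2 genes within each library (points) with mean and SD for the 4 groups, for Mag over Mobp, Sox10 over Olig2 and Nkx6-2 over Olig2. In every panel all 8 morphine libraries lie below all 8 naïve libraries.

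Because 25 of the genes fell together, their upstream sequence was read from RefSeq windows of GRCm38.p6, which held 25 of the 35 genes and 17 of those called. Shown are the 250 bases before the annotated start, 5′ to 3′ on the gene's strand, of 4 genes called under the knockout label. Overlap with exons of other genes was not checked. The windows were taken in order of p, from those that held no exon of the gene itself. They lie at chr11:3983386-3983635 (Gal3st1, plus strand), chr12:79028913-79029162 (Plekhh1, plus strand), chr7:139582798-139583047 (Nkx6-2, minus strand) and chr19:41077114-41077363 (Opalin, minus strand). Capitals mark a match to ACAAAG, a core bound by SOX factors.
Gal3st1: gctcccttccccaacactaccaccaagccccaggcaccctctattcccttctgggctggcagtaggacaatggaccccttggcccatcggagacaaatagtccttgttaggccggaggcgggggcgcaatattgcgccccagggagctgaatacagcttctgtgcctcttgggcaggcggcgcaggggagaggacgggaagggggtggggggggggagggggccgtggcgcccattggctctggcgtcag
Plekhh1: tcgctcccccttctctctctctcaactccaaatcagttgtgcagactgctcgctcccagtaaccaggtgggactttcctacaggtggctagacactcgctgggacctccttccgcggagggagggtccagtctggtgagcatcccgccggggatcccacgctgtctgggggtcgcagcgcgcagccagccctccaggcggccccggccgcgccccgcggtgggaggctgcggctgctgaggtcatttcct
Nkx6-2: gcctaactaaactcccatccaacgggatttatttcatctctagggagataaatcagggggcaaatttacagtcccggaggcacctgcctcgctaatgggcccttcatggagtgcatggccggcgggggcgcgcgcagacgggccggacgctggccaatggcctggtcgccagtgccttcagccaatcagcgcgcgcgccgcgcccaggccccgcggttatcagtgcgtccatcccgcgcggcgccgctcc
Opalin: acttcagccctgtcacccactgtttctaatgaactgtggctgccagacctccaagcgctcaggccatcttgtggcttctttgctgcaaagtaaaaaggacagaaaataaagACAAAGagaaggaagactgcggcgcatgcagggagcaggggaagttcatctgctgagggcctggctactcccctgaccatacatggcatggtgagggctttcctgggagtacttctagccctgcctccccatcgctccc
The Opalin window held 1 match to ACAAAG, 139 to 134 bases before the start, and the windows of Gal3st1, Plekhh1 and Nkx6-2 held none. Read on both strands (ACAAAG or CTTTGT), this core was in 7 of the 25 member windows (28.0%) and 5 of the 17 called ones (29.4%). It was in 15.0% of 18173 gene windows of the same length. The Mobp window held 6 matches, although Mobp was not called. CTGGCAC or GTGCCAG, a core given for Myrf, was in 3 (12.0%), 2 (11.8%) and 4.18% of the same windows. The E-box CAGCTG, a site type of Olig factors, was in 3 (12.0%), 2 (11.8%) and 12.4%. GGGCGG or CCGCCC, the GC box, was in 8 (32.0%), 7 (41.2%) and 43.0%. These are letter matches only, in few member windows, and binding was not measured. The start sites of the Aspa and Tmem125 windows lay 4959 and 318 bases from the gene's annotated 5′ end. For Aspa, Gjb1 and Ugt8a the bases after the start were not found near the 5′ end of an annotated transcript.

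The comparison of the morphine differences between the genotype labels (the interaction) called none of the 35 genes by edgeR, where 0% of all genes were called, and the smallest adjusted p of a member was 0.253. The median interaction of the 35 genes was -0.45 on the log2 scale, with a median SE of 0.18, and 25 had an unadjusted p under 0.05, as had 12.1% of all genes. Wildtype naïve 2, the lowest of its group for 33 of the 35 genes, enters this difference. Without it the summed wildtype naïve level was 9781 CPM, against 9018 CPM with it. The median interaction without that library alone is not given here. With any 1 library left out edgeR called none of the 35 genes. DESeq2 called 3 of them, Ugt8a, Car2 and Adamts4, with 0.591% of all genes, and limma-voom none. Without wildtype naïve 2 and knockout morphine 3, the libraries with the most meningeal markers, edgeR called Plekhh1 and Myrf, with 0.352% of all genes. So the larger number of genes called under the knockout label is not shown to differ from wildtype for single genes by the edgeR test.

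Between the genotype labels, 1 gene differed among naïve libraries, where 0.906% of all genes were called (0.442% higher). Ninj2, Sirt2, Adamts4 and Erbb3 were higher in every knockout naïve than in every wildtype naïve library, which held for 4.14% of all genes, and no member was lower in every one (3.99%). Ninj2 was at 1.01, 1.81, 1.50 and 1.89 CPM in wildtype naïve and at 2.81, 3.70, 2.45 and 3.57 CPM in the naïve libraries labelled knockout. It was higher by 1.00 ± 0.18 on the log2 scale without overlap (edgeR adjusted p = 0.0113), but not past the threshold without knockout naïve 2 or 4. Its counts were low, from 27 to 163 reads per library. Under morphine the label difference of Ninj2 was 0.33 ± 0.20 (adjusted p = 0.634), with 1.68, 1.69, 2.21 and 1.65 CPM in knockout and 1.10, 1.39, 1.41 and 1.79 CPM in wildtype libraries, and within the knockout label it fell with morphine by 0.81 ± 0.19 (adjusted p = 0.0103). The median log2 difference of the 35 genes between the labels was 0.21 among naïve libraries and, without wildtype naïve 2, 0.09.

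Under morphine no member differed between the labels by edgeR, where 0.530% of all genes were called. An unadjusted p under 0.05 was found for 10 of 35, a count with no share of all genes beside it here. DESeq2 called Ugt8a, and limma-voom none. The median difference was -0.22, and 9 genes were lower in every morphine library labelled knockout than in every wildtype one, against 3.02% of all genes, with none higher in every one (2.25%). Without wildtype naïve 2, which is in neither group but in the estimate of spread, Mog, Ugt8a and Fa2h were called lower. The share of all genes called without that library is not given here. Averaged over both labels, morphine went with lower levels of 22 of the 35 genes and higher levels of none, where 17.1% of all genes were called (8.03% lower and 9.02% higher). Averaged over both treatments, Ninj2 alone differed between the labels (1.53% of all genes called, 0.685% higher and 0.845% lower). These comparisons share libraries and are not independent of each other.

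Further genes of the pathway were read from fixed lists, also chosen with earlier results of these data known. Their counts stand beside 4.41% of all genes called in wildtype and 11.5% under the knockout label. Of 39 other genes of mature oligodendrocytes, 1 fell and none rose with morphine in wildtype, and 29 fell and none rose under the knockout label, with medians of -0.07 and -0.41. Tmem98, a membrane protein that binds Myrf, fell in both, by 0.49 ± 0.08 and 0.81 ± 0.08 on the log2 scale (edgeR adjusted p = 0.00082 and 1.4e-05), and was called in all 27 settings each time. The kinase gene Aatk, the junction gene Jam3 and the glycosyltransferase gene Galnt6 fell under the knockout label by 0.32 ± 0.05, 0.29 ± 0.04 and 0.79 ± 0.11. Without wildtype naïve 2, 9 of the list were called in wildtype (1 to 9 with 1 library left out), and without knockout naïve 2, 19 were called under the knockout label. The list holds Ptgds, which is also a meningeal marker.

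Of 17 other regulators of the lineage, Nkx2-2, a homeobox factor of early oligodendrocytes, was called in wildtype, with a fall of 0.54 ± 0.13 that was lost without wildtype naïve 1 or wildtype morphine 1, 2 or 4. Over all genes, 4.41% were called in wildtype and 11.5% under the knockout label. A count of 1, here and for the node genes below, is near the wildtype share. Under the knockout label 3 of the 17 regulators fell and 1 rose: Zeb2 by 0.33 ± 0.07, Nkx2-2 by 0.54 ± 0.14 and Sox8 by 0.20 ± 0.06, while Id4, an inhibitor of differentiation, rose by 0.43 ± 0.11. The calls of Nkx2-2 and Sox8 were lost without knockout naïve 4 or morphine 2, that of Sox8 also without naïve 2 or morphine 4, and that of Id4 without naïve 1, 2 or 3 or morphine 2 or 4. Left without knockout morphine 2, 1 of the 17 was called. Of 20 genes of axon contact and the node of Ranvier, 1 rose in wildtype, and 6 fell and 4 rose under the knockout label. The adhesion gene Cntn1 rose by 0.18 ± 0.04 in both, in wildtype not past the threshold without naïve 2 or 3 or morphine 1 or 2. Under the knockout label Cntn2, an adhesion protein next to the node, fell by 0.36 ± 0.07, Cntnap1, a paranodal adhesion protein, by 0.15 ± 0.03 and the node anchor Ank3 by 0.25 ± 0.06. Without knockout naïve 2 or morphine 2, 4 of the 20 were called. With the serotonin score of each library as a covariate, described with the other cell types, the counts under the knockout label were 1 of these 20, 13 of the 39 other mature genes and 1 of the 17 regulators.

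Of 24 genes for cholesterol and sphingolipids, 1 fell in wildtype, and 3 fell and 1 rose under the knockout label, with medians of 0.03 and -0.02. These counts were near the shares of all genes called, 4.41% in wildtype and 11.5% under the knockout label. Elovl7, a fatty acid elongase, fell by 0.44 ± 0.10 in wildtype, a call lost without wildtype morphine 1 or 4, and by 0.75 ± 0.10 under the knockout label, in all 27 settings. Elovl1 and the ceramide synthase Cers2 fell under the knockout label by 0.37 ± 0.10 and 0.24 ± 0.07, and Fdft1, a cholesterol enzyme, rose by 0.20 ± 0.04. Elovl1 was not called without knockout naïve 1 or 2 or morphine 1 or 4, nor Cers2 without naïve 2 or 4 or morphine 2 or 4. Without naïve 2 or morphine 4 of the knockout label 2 of the 24 were called, and with the serotonin score 1. The summed level of the precursor list, with Pdgfra and Cspg4, ranged from 409 to 453 CPM over all 16 libraries, and under the knockout label 0 of 9 genes were called by edgeR, DESeq2 or limma-voom (3 with an unadjusted p under 0.05). In wildtype Cspg4 fell by 0.28 ± 0.07, a call lost without wildtype naïve 2, 3 or 4 or morphine 1, 2 or 4.

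Markers of other cells moved with the same comparison, in which 4.41% of all genes were called in wildtype and 11.5% under the knockout label. Of 11 serotonin neuron markers 9 rose with morphine under the knockout label (2 to 10 with 1 library left out, the fewest without knockout naïve 2), and none was called in wildtype by edgeR, DESeq2 or limma-voom (0 with an unadjusted p under 0.05). Their summed level was 353, 297, 179 and 420 CPM in knockout naïve and 712, 1714, 613 and 1809 CPM in knockout morphine libraries, without overlap, and 550 ± 305 and 854 ± 123 CPM (SD, n = 4) in wildtype naïve and morphine libraries. With the serotonin score of each library as a covariate, 12 of the 35 oligodendrocyte genes were called under the knockout label, with a median log2 fold change of -0.71 and a median SE of 0.193, where 2.31% of all genes were called. These 12 were Mag, Opalin, Pllp, Plekhh1, Gal3st1, Aspa, Car2, Qdpr, Sox10, Nkx6-2, Trf and Adamts4. Of 10 endothelial markers 4 fell in each label and of 10 microglial markers 2 fell in each, among them Cldn5 and Cx3cr1. In wildtype the endothelial count was 2 without naïve 1 or 2 or morphine 1, 2 or 4, and the microglial count was 5 without naïve 4. Among 10 astrocyte markers, Sox9 fell in wildtype, in all 27 settings, and 2 fell under the knockout label (0 to 2 with 1 library left out). Among 6 tested Schwann cell markers, Sox2 fell in wildtype, in 26 of 27 settings. Among 10 choroid plexus and ependyma markers, Ttr rose in wildtype, in 9 of 27 settings. Neither of the last 2 lists had a call under the knockout label by edgeR. Of 12 neuronal markers 3 rose under the knockout label. Adjusted for the serotonin score, the knockout counts were 0 neuronal, 0 endothelial, 1 microglial and 1 astrocyte marker. Of 8 tested markers of noradrenergic, motor and cholinergic neurons, all had positive log2 differences with morphine in both labels, with medians of 1.44 in wildtype and 2.53 under the knockout label and median SEs of 0.84 and 0.87. In wildtype none was called by edgeR, DESeq2 or limma-voom (1 with an unadjusted p under 0.05). Under the knockout label 7 had an unadjusted p under 0.05 and edgeR called Prph, in 12 of 27 settings, while DESeq2 called 5 and limma-voom none. The Prph call was lost without any 1 of the knockout naïve libraries, knockout morphine 2, 3 or 4, wildtype naïve 4 or wildtype morphine 2. The summed level of the list was 12.8, 17.1, 20.7 and 11.7 CPM in knockout naïve and 21.4, 126, 67.3 and 62.5 CPM in knockout morphine libraries, without overlap. No meningeal marker was called in either morphine comparison by edgeR, DESeq2 or limma-voom (1 of 10 in wildtype and 0 of 10 under the knockout label had an unadjusted p under 0.05), and 2 were called under the knockout label with the serotonin score. The part of the makeup of the punches in the oligodendrocyte results was not tested.

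**Figure D5:**
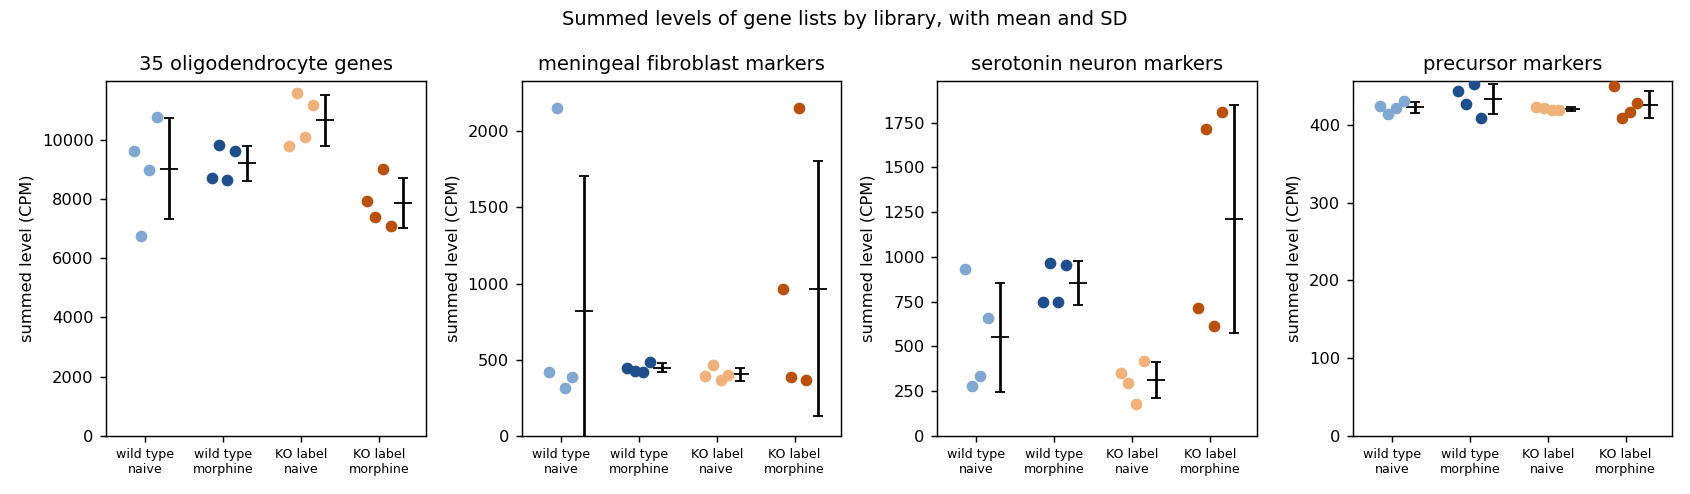
Summed CPM of the 35 oligodendrocyte genes and of 3 lists of markers in each library (points) with mean and SD for the 4 groups; the SD bar of the meningeal panel reaches below 0 for wildtype naïve and is cut at the axis. The oligodendrocyte sum is lower in 4 of 4 knockout morphine than in knockout naïve libraries, the serotonin sum is higher in them, and the precursor sum stays between 409 and 453 CPM.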

How the data were processed

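The authors deposited whole-number read counts per gene for 16 libraries, made with HTSeq on mm10, per the submitters' processing notes, where limma is listed too. Which aligner, gene annotation and strandedness they used is not given in the sources used here. Per the labels' protocols, total RNA came from a TRIzol isolation and went into TruSeq v2 libraries, which do not mark the strand. HTSeq tallies outside genes (38.2 to 40.6% of each total) were left out. Identifiers were matched to GENCODE M21 (37607 of 38924), and RefSeq gave promoter windows for 25 of the 35 genes.

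After filterByExpr (minimum count 10) and TMM scaling, edgeR's robust quasi-likelihood test (edgeR 4.0.16, R 4.3.3) was run in 1 fit of all 16 libraries with 1 coefficient per group. Benjamini-Hochberg adjusted p under 0.05 over 18111 genes was the threshold. The SE is the absolute log2 fold change over the square root of F. DESeq2 1.42.0 and limma-voom (limma 3.58.1) were alternatives, beside other scalings, filters, a replicate block, thinned counts, a serotonin score and each library left out. The procedure was tested on simulated data. Any of the 35 genes could be named, and of each other list up to 4 genes with the smallest p. Members and lists were chosen with earlier results of these data known. Of the lists, Lhfpl3 and Slc18a3 matched no row used here.

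Replicate numbers did not pair the libraries: of 24 same-numbered pairs, 3 had deviations correlated above 0.1 (r from -0.28 to 0.13).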

Additional observations from a re-analysis of the deposited data

Results flagged for a closer look

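In 14 of 140 combinations of a gene and a group, 1 library lay apart from the other 3 by Dixon's test. Chance flags about 1 in 20 such groups, and the genes share libraries, so these are not independent. Wildtype naïve 2 was the low library for Opalin (25.8 CPM), Car2 (172 CPM), Qdpr (241 CPM) and Sox10 (52.3 CPM). The other wildtype naïve libraries lay between 35.7 and 36.3 CPM for Opalin, 225 and 235 CPM for Car2, 306 and 315 CPM for Qdpr, and 68.4 and 70.4 CPM for Sox10. Knockout morphine 3 was the high library for Gjb1 (20.6 CPM), Hapln2 (49.2 CPM), Ninj2 (2.21 CPM), Plekhh1 (77.1 CPM), Gal3st1 (12.6 CPM) and Apod (268 CPM). The highest of the others was 13.8 CPM for Gjb1, 37.0 CPM for Hapln2, 63.6 CPM for Plekhh1 and 150 CPM for Apod. These are the 2 libraries with the highest meningeal markers, 2151 and 2153 CPM. Erbb3 had 1 high library in each group labelled knockout: naïve 2 at 35.8 CPM, against 30.2 to 30.6 CPM, and morphine 1 at 24.4 CPM, against 13.7 to 14.6 CPM. In wildtype morphine, library 1 was low for Gjb1 (17.4 CPM) and library 3 for Car2 (189.0 CPM).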

How the results depend on the processing

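Called genes kept their direction in every alternative tried (0 sign changes), while differences that were not called changed sign 160 times. The count of called members for morphine in wildtype was 4 and became 2 with limma-voom, without a filter, with only the groups compared, with the replicate block and with the serotonin score. With 1 library left out it was 1 to 7. For morphine under the knockout label (25) it was 12 with the serotonin score, 24 with the replicate block and 19 to 29 with 1 library left out. The average over labels (22) gave 10 with the serotonin score, 18 with the block and 18 to 28 with 1 library left out. The genotype difference among naïve libraries (1) gave 2 with DESeq2 and 0 to 1 with 1 library left out. That under morphine (0) gave 1 with DESeq2, 4 with only the groups compared and 0 to 3 with 1 library left out. The interaction (0) gave 3 with DESeq2. Leaving out wildtype naïve 2 and knockout morphine 3 together, chosen after seeing the data, gave 12 for wildtype, 31 for the knockout label, 11 between labels under morphine and 2 for the interaction. Apart from those stated above, the shares of all genes called in these settings are not given here. These counts therefore describe the members only. The cause of these shifts was not tested. The replicate block, by numbers that showed no clear pairing of the libraries, moved no other count of members by more than 1.5 times. With it Elovl7 and Cspg4 were not called in wildtype, and the wildtype calls over all genes went from 798 to 512 and those between labels among naïve libraries from 164 to 89. With 4 libraries a group, differences of about 3 SE, such as those of Myrf, Ermn and Hapln2 under the knockout label, did not pass the threshold, and low counts limit Ninj2 and Trf most (from 27 and 73 reads per library).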

Other observations

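The summed level of 18 glucocorticoid-induced genes was higher in all 8 morphine libraries than in all 8 naïve libraries. It was 688 to 970 CPM in naïve and 1139 to 1627 CPM in morphine libraries. By edgeR, 15 of the 18 rose in wildtype (2.34% of all genes rose) and 16 under the knockout label (5.67% of all genes). With the serotonin score 14 were called in wildtype and 4 under the knockout label. Under the knockout label the score itself did not overlap between naïve (-1.61 to -0.423) and morphine libraries (0.0817 to 1.27). The motif AGAACA or TGTTCT, part of the glucocorticoid receptor site, was in 1 of the 25 member windows (4.0%) and in 13.9% of 18173 gene windows.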
